A study of Mus musculus with 16 samples.

Results

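The genes described here are 38 interferon-stimulated genes of the mouse other than Mx1 and Mx2, taken from a list of symbols. It covers the chemokine Cxcl10, antiviral effectors, the IFIT and OAS families, sensors of viral nucleic acid, transcription factors of the pathway, the ISG15 system and antigen processing. This list and the wider pathway list below were chosen with earlier results of these data known. Their shares beside those of all rows are therefore descriptions and no independent test. A gene was measured if the array annotation had a row carrying its symbol alone, and where a gene had more than 1 such row the row with the highest mean over the 16 arrays was taken. This left 35 of 38 genes, among 22961 annotated rows tested. Isg15 lay only on a row shared with Gm9706, Gbp2 lay on a row shared with Gbp2b, and Ifi44 was on no named row, so these 3 have no value here.

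RNA came from bone marrow cells of C57BL/6J mice sorted as LSK cells (Lin-Sca1+c-Kit+, a population that holds the stem cells and early progenitors) or as MP cells (Lin-Sca1-c-Kit+, the myeloid progenitors). The mice were Parp-2-/-, lacking the DNA repair enzyme PARP-2, or wild type (WT), and the irradiated groups were taken 2.5 h after 5 Gy of gamma rays. The 8 groups were therefore irradiated and unirradiated Parp-2-/- LSK, irradiated and unirradiated WT LSK, irradiated and unirradiated Parp-2-/- MP, and irradiated and unirradiated WT MP. Each group had 2 arrays, and each array carried a pool of at least 3 mice. The labels read here give neither the age of the mice nor the kind of Parp-2 allele, and do not say whether mice or cells were irradiated. P-values measure the spread between these pools, which no label ties to separate days or sorts.

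Interferons are secreted by cells that detect viral or displaced nucleic acid through sensors such as RIG-I and MDA5. Type I and type III interferons activate a complex holding STAT2 and IRF9 that binds a DNA element called the ISRE, while interferon gamma acts on an element called GAS. The induced genes block viral replication, raise antigen presentation and attract leukocytes, and in blood stem cells interferon signalling is known to affect cycling and survival.

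The promoter stretches of Cxcl10, Ifit1 and Gbp3 are shown because these genes had large radiation differences and hold the interferon element, and the stretch between Tap1 and Psmb9 because those neighbours, which are transcribed away from each other, are a gene that rose and a gene that did not pass the test. All are RefSeq sequence of GRCm38.p6, written 5′ to 3′. Cxcl10 at chr5:92348890-92349139 is on the minus strand, and Ifit1 at chr19:34640759-34640888, Gbp3 at chr3:142559914-142560043 and the Tap1 to Psmb9 stretch at chr17:34187331-34187555 are on the plus strand. Capitals mark an ISRE match (GAAA, any 2 bases, then GAAA, on either strand) in all 3 promoters and, in Cxcl10, also a pair of NF-kappaB matches downstream of it.
Cxcl10: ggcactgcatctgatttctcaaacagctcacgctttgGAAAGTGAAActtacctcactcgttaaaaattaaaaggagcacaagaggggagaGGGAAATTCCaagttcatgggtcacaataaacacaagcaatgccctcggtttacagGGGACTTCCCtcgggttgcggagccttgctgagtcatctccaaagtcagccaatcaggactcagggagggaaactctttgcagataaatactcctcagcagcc
Ifit1: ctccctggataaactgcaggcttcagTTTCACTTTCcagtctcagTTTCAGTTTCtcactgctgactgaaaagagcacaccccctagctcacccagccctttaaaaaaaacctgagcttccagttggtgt
Gbp3: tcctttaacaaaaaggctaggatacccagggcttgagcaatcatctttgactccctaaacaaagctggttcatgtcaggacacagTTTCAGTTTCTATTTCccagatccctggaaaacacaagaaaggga
Tap1 and Psmb9: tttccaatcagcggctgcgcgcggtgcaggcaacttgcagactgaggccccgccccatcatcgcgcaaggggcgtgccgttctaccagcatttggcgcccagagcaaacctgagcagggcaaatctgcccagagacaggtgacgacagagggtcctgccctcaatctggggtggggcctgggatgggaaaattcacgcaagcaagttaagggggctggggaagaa
The ISRE match began 213 bases upstream of the Cxcl10 start, and the matches of Ifit1 began 104 and 85 bases upstream. The stretch of 225 bases between the starts of Tap1 and Psmb9 held no match to ISRE, GAS (TTCNNNGAA) or NF-kappaB letters.

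A window of 300 bases around the start was at hand for 33 of the 38 genes, with Dhx58, Oas2, Rtp4, Usp18 and Zbp1 lacking one. An ISRE match on either strand was present in 14 of 33 windows (42.4%), against 3.99% of the windows of 27025 genes. A GAS match was present in 10 of 33 (30.3%), against 9.55% of all windows, and an NF-kappaB match in 4 of 33 (12.1%), against 5.14%. A strict p53 pattern, a pair of complete half-sites of the p53 binding sequence, was in 0 of 33 and in 0.074% of all windows (20 genes). A pattern this rare could hardly appear in 33 windows, so the 0 does not show that p53 sites are absent. Matches of different motifs could overlap. Among genes with a window, the ISRE letters stood in 4 of the 7 that passed the averaged radiation test below and in 8 of the 23 that did not.

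Values are log2 array intensities as deposited, so differences are log2 fold changes. The level of a gene is compared between groups only, never with that of another gene, because each probe set has its own brightness. Parp2 itself read at most 7.11 on the Parp-2-/- arrays and at least 7.40 on the WT arrays. The summed log2 levels of 8 LSK marker genes were 55.8 to 60.0 in LSK pools and 47.3 to 50.9 in MP pools, and those of 9 MP marker genes were 64.5 to 68.8 in LSK pools and 80.6 to 84.0 in MP pools. The pools of a group stood farthest apart in these genes in WT LSK cells. The median distance between the pools was 0.48 over the 35 genes and 0.28 over all tested rows in irradiated WT LSK cells, and 0.43 and 0.24 in unirradiated WT LSK cells. Calls in single WT LSK comparisons are given with and without these pools.

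**Figure D1:**
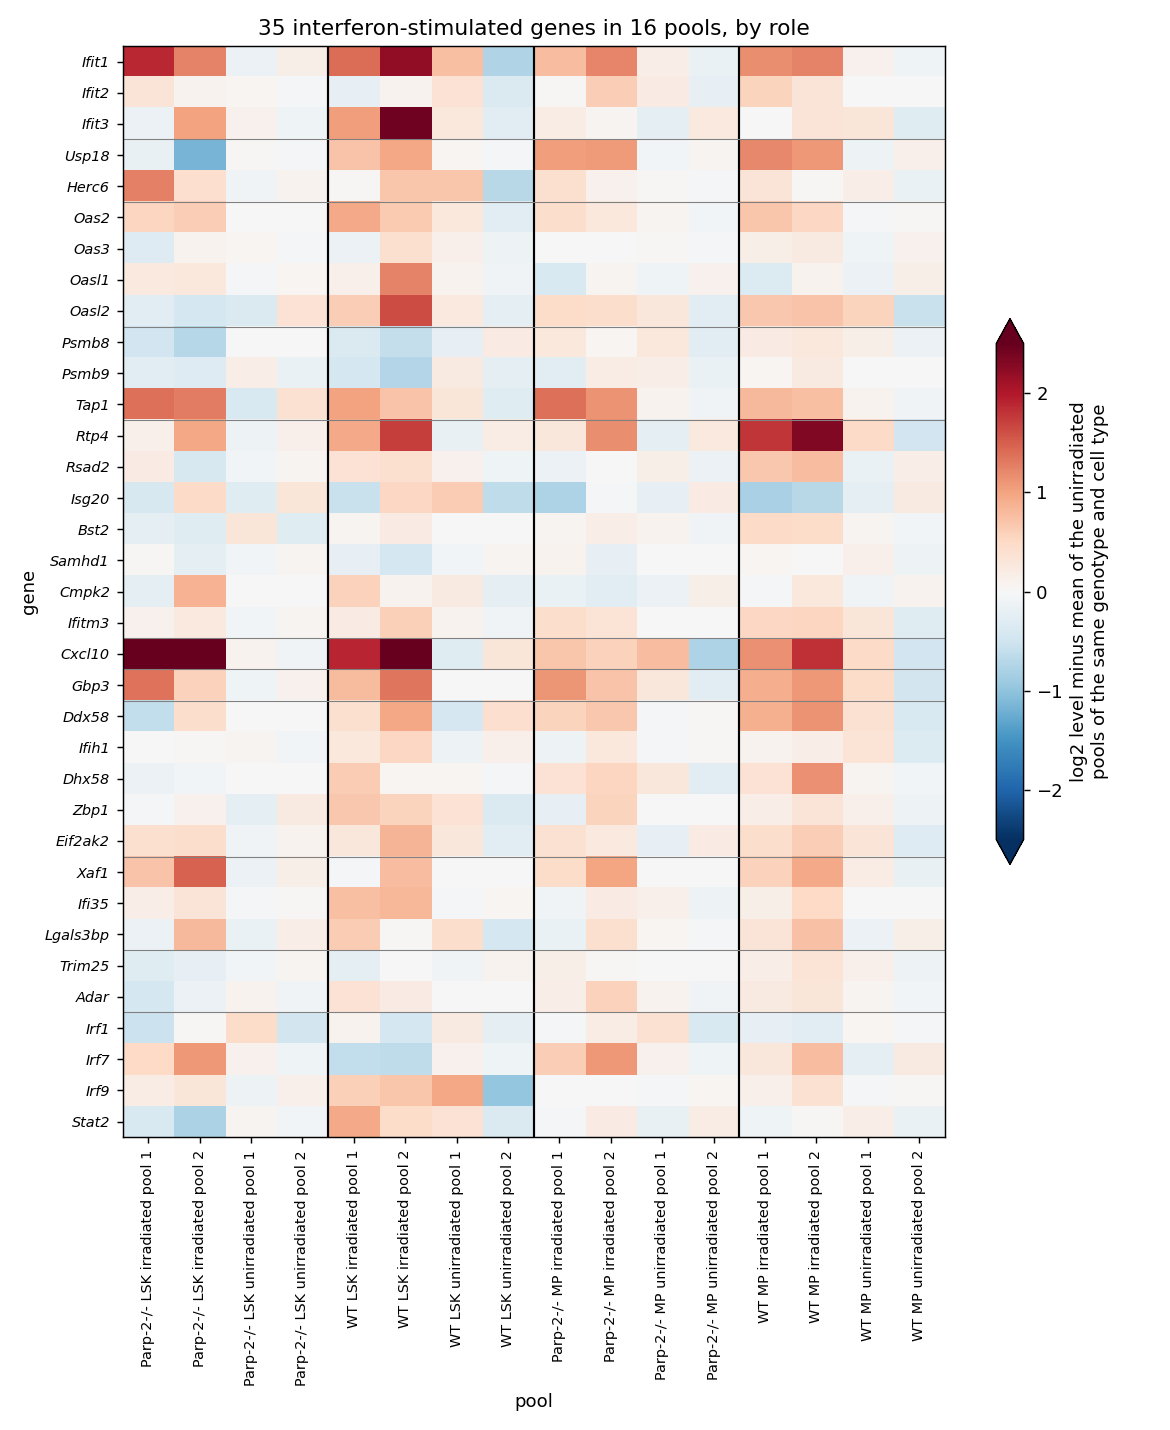
Heat map of the 35 genes (rows, grouped by role) in the 16 pools (columns), coloured by log2 level minus the mean of the unirradiated pools of the same genotype and cell type, with colours saturating at the ends of the bar. Cxcl10, Ifit1, Tap1 and Gbp3 are red in irradiated pools of all 4 combinations, while Usp18 is blue in irradiated Parp-2-/- LSK pools and Irf7 is blue in irradiated WT LSK pools.

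The averaged radiation difference is the mean of the irradiated minus unirradiated differences in the 4 combinations of genotype and cell type. It was above 0 in 29 of the 35 genes, with a median of 0.33, against a median of -0.02 over all tested rows, of which 43.9% were above 0. By limma, with p-values adjusted over all rows by Benjamini-Hochberg and called under 0.05, 10 of 35 genes (28.6%) rose and 0 fell. Over all rows 3.31% rose and 5.8% were called in either direction. The genes that rose were Cxcl10, Ifit1, Rtp4, Tap1, Gbp3, Xaf1, Usp18, Oas2, Ifitm3 and Ifi35. The calls for Ifi35 and Ifitm3 were the least stable, with adjusted p-values of up to 0.077 and 0.11 under other settings, while the other 8 kept their call under all 23 settings tried. Both irradiated pools lay above both unirradiated pools in all 4 combinations for Ifit1, Oas2, Gbp3, Tap1 and Ifitm3, which is 5 of 35 genes (14.3%) against 2.09% of all rows. The difference was above 0 in all 4 combinations for 16 genes (45.7%), against 10.6% of all rows. Both irradiated pools were the higher ones in at least 3 of the 4 combinations for 15 genes (42.9%), against 5.64% of all rows.

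**Figure D2:**
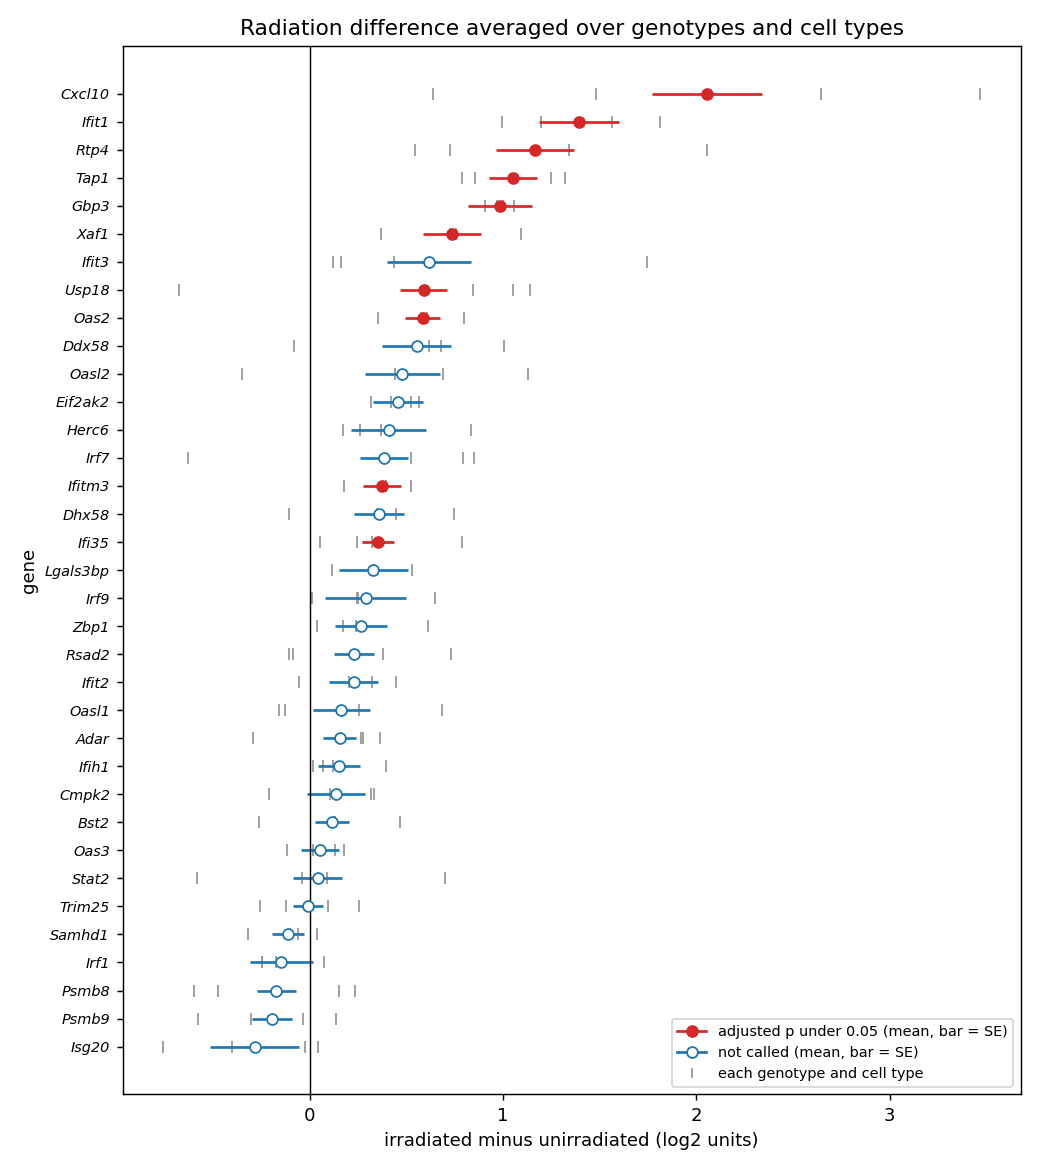
Irradiated minus unirradiated log2 difference of each gene, averaged over the 4 combinations of genotype and cell type (points, bars are SE), with each combination as a tick. The 10 filled points passed the test, led by Cxcl10 at 2.06, and the 6 genes left of 0 did not pass it.

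Cxcl10 encodes a chemokine that draws CXCR3-bearing T and NK cells, and it had the largest difference. In LSK cells it read 7.90 and 9.01 in irradiated Parp-2-/- pools, against 5.07 and 4.90 in unirradiated Parp-2-/- pools. It read 6.83 and 8.32 in irradiated WT LSK pools, against 4.63 and 5.24 in unirradiated WT LSK pools. No irradiated LSK pool overlapped an unirradiated one. In MP cells it read 6.42 and 6.32 in irradiated Parp-2-/- pools, against 6.50 and 4.97 in unirradiated Parp-2-/- pools, and these overlapped. It read 6.77 and 7.46 in irradiated WT MP pools, against 6.11 and 5.16 in unirradiated WT MP pools. Averaged, Cxcl10 rose by 2.06 ± 0.28 (SE, 8 irradiated and 8 unirradiated pools, adjusted p = 0.00079), a 4.16-fold difference.

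The IFIT proteins bind viral RNA that lacks the host's cap methylation. Ifit1 read 5.88 and 5.23 in irradiated Parp-2-/- LSK pools, against 3.85 and 4.14 in unirradiated ones, and 5.69 and 6.51 in irradiated WT LSK pools, against 5.05 and 3.53 in unirradiated ones. It read 4.83 and 5.28 in irradiated Parp-2-/- MP pools, against 4.23 and 3.89 in unirradiated ones, and 5.54 and 5.61 in irradiated WT MP pools, against 4.49 and 4.27 in unirradiated ones. The irradiated pools were higher without overlap in each combination, and Ifit1 rose by 1.39 ± 0.21 on average (adjusted p = 0.0014). The unirradiated pools of all combinations except WT LSK lay below the median of their array and were not shown to be above background, so the difference is a lower bound there. Ifit3 had the dimmest probe set of the 35 and lay below the array medians in all groups except the irradiated LSK ones. It read 3.89 and 5.05 in irradiated Parp-2-/- LSK pools, against 4.14 and 3.93 in unirradiated ones, and 4.98 and 6.36 in irradiated WT LSK pools, against 4.20 and 3.66 in unirradiated ones. In MP cells Ifit3 lay between 3.81 and 4.13 in irradiated pools and between 3.51 and 4.10 in unirradiated pools. Its averaged difference of 0.62 ± 0.22 did not pass the test (adjusted p = 0.14), nor did that of Ifit2 at 0.23 ± 0.13.

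The antiviral effectors act at different steps of infection, and 2 of the 7 measured rose. Rtp4, a transmembrane protein that binds viral RNA and restricts several viruses, read 7.92 and 8.77 in irradiated Parp-2-/- LSK pools, against 7.68 and 7.92 in unirradiated ones. It read 8.46 and 9.24 in irradiated WT LSK pools, against 7.32 and 7.70 in unirradiated ones. In MP cells Rtp4 read 6.91 and 7.78 in irradiated Parp-2-/- pools, against 6.37 and 6.87 in unirradiated ones, and 7.41 and 7.94 in irradiated WT pools, against 6.10 and 5.14 in unirradiated ones. The groups overlapped slightly at 7.92 in Parp-2-/- LSK cells and did not overlap in the other 3 combinations. Rtp4 rose by 1.17 ± 0.20 on average (adjusted p = 0.0044). Ifitm3, which blocks fusion of viruses in endosomes, had the brightest probe set of the 35, which says nothing of its RNA relative to other genes. It read 10.92 and 11.05 in irradiated Parp-2-/- LSK pools, against 10.75 and 10.87 in unirradiated ones, and 10.76 and 11.14 in irradiated WT LSK pools, against 10.64 and 10.47 in unirradiated ones. It read 10.64 and 10.54 in irradiated Parp-2-/- MP pools, against 10.19 and 10.19 in unirradiated ones, and 10.70 and 10.72 in irradiated WT MP pools, against 10.49 and 9.88 in unirradiated ones. Its rise was small, 0.37 ± 0.10 (adjusted p = 0.045). The other 5 effectors did not pass the test. Their averaged differences were 0.23 for Rsad2, which encodes viperin, 0.14 for Cmpk2, 0.12 for the tethering protein Bst2, -0.11 for the dNTP hydrolase Samhd1 and -0.28 for the exonuclease Isg20.

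OAS enzymes make oligoadenylates that switch on RNase L, and of the 4 OAS and OAS-like genes measured Oas2 rose. Oas2 read 6.25 and 6.33 in irradiated Parp-2-/- LSK pools, against 5.71 and 5.72 in unirradiated ones, and 6.55 and 6.27 in irradiated WT LSK pools, against 5.87 and 5.35 in unirradiated ones. It read 5.44 and 5.26 in irradiated Parp-2-/- MP pools, against 5.06 and 4.93 in unirradiated ones, and 5.67 and 5.50 in irradiated WT MP pools, against 4.95 and 5.01 in unirradiated ones. The groups did not overlap in any combination, and Oas2 rose by 0.58 ± 0.09 on average (adjusted p = 0.0018). Oasl2 had a difference of 0.48 ± 0.20, Oasl1 of 0.16 ± 0.15 and Oas3 of 0.05 ± 0.10, none past the test.

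Gbp3, a guanylate-binding protein of the GTPase family that attacks membranes around intracellular pathogens, rose by 0.98 ± 0.17 (adjusted p = 0.0034). It read 7.74 and 6.97 in irradiated Parp-2-/- LSK pools, against 6.28 and 6.49 in unirradiated ones, and 6.94 and 7.48 in irradiated WT LSK pools, against 6.17 and 6.14 in unirradiated ones. In MP cells it read 7.28 and 6.87 in irradiated Parp-2-/- pools, against 6.46 and 5.87 in unirradiated ones, and 7.30 and 7.47 in irradiated WT pools, against 6.85 and 5.92 in unirradiated ones. All 8 irradiated pools lay above all 8 unirradiated pools. Gbp3 also had the most even response, with differences between 0.91 and 1.06 in the 4 combinations.

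Xaf1, which antagonises the caspase inhibitor XIAP and favours apoptosis, rose by 0.74 ± 0.15 (adjusted p = 0.012). It read 6.82 and 7.58 in irradiated Parp-2-/- LSK pools, against 5.97 and 6.24 in unirradiated ones, and 6.19 and 7.02 in irradiated WT LSK pools, against 6.22 and 6.26 in unirradiated ones. It read 6.28 and 6.80 in irradiated Parp-2-/- MP pools, against 5.83 and 5.80 in unirradiated ones, and 6.50 and 6.86 in irradiated WT MP pools, against 6.11 and 5.73 in unirradiated ones. The groups overlapped only in WT LSK cells. Ifi35, an interferon-induced leucine zipper protein, read 6.04 and 6.20 in irradiated Parp-2-/- LSK pools, against 5.85 and 5.89 in unirradiated ones, and 6.20 and 6.29 in irradiated WT LSK pools, against 5.40 and 5.51 in unirradiated ones. It read 6.08 and 6.37 in irradiated Parp-2-/- MP pools, against 6.30 and 6.04 in unirradiated ones, and 6.08 and 6.42 in irradiated WT MP pools, against 5.93 and 5.93 in unirradiated ones. Its averaged rise was 0.35 ± 0.08 (adjusted p = 0.025), and its groups overlapped in Parp-2-/- MP cells. Lgals3bp, a secreted glycoprotein, had a difference of 0.33 ± 0.18 and did not pass.

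**Figure D3:**
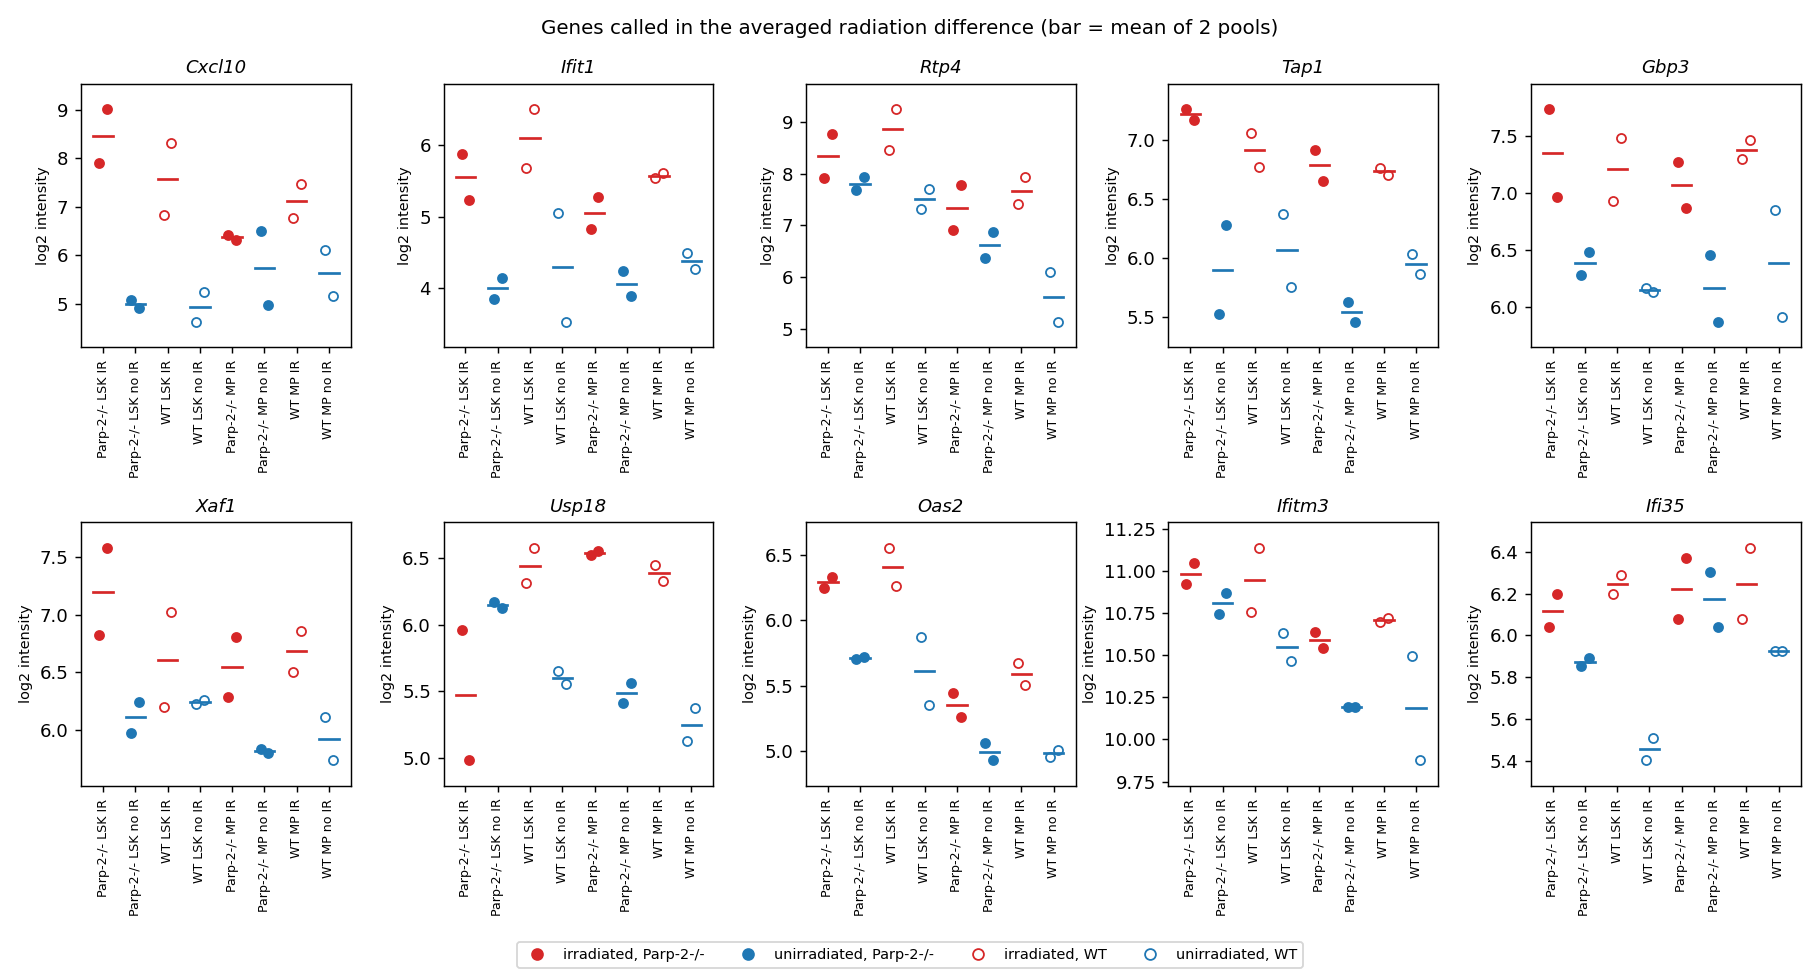
Log2 intensity of each pool (points, bars are means of 2 pools) for the 10 genes that rose in the averaged comparison, with irradiated pools in red left of unirradiated pools in blue. Ifit1, Oas2, Gbp3, Tap1 and Ifitm3 have no overlap in any of the 4 pairs of groups, and Usp18 is lower in irradiated Parp-2-/- LSK pools.

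Of the 3 genes of antigen processing 1 rose. Tap1 forms part of the transporter that carries peptides into the endoplasmic reticulum for MHC class I, and it rose by 1.05 ± 0.13 (adjusted p = 0.00025). It read 7.27 and 7.18 in irradiated Parp-2-/- LSK pools, against 5.52 and 6.28 in unirradiated ones, and 7.06 and 6.77 in irradiated WT LSK pools, against 6.37 and 5.75 in unirradiated ones. In MP cells it read 6.92 and 6.66 in irradiated Parp-2-/- pools, against 5.62 and 5.46 in unirradiated ones, and 6.77 and 6.71 in irradiated WT pools, against 6.03 and 5.86 in unirradiated ones. As with Gbp3, all 8 irradiated pools lay above all 8 unirradiated ones.

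Psmb9 and Psmb8 encode subunits of the immunoproteasome, which cuts the peptides that the transporter carries, and neither passed the test, with averaged differences of -0.19 ± 0.10 (adjusted p = 0.39) and -0.17 ± 0.10 (adjusted p = 0.46). Psmb9 read 10.02 and 9.98 in irradiated Parp-2-/- LSK pools, against 10.48 and 10.13 in unirradiated ones, and 10.09 and 9.80 in irradiated WT LSK pools, against 10.74 and 10.31 in unirradiated ones. In MP cells Psmb9 read 9.76 and 10.20 in irradiated Parp-2-/- pools, against 10.18 and 9.86 in unirradiated ones, and 10.12 and 10.31 in irradiated WT pools, against 10.06 and 10.08 in unirradiated ones. Irradiated LSK pools were thus the lower ones in both genotypes, while irradiated MP pools overlapped the unirradiated ones in Parp-2-/- mice and were higher in WT mice. The radiation difference of Tap1 exceeded that of Psmb9 by 1.25 and that of Psmb8 by 1.22. These pairs were chosen after their values were seen, so the excess is a description with no test.

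**Figure D4:**
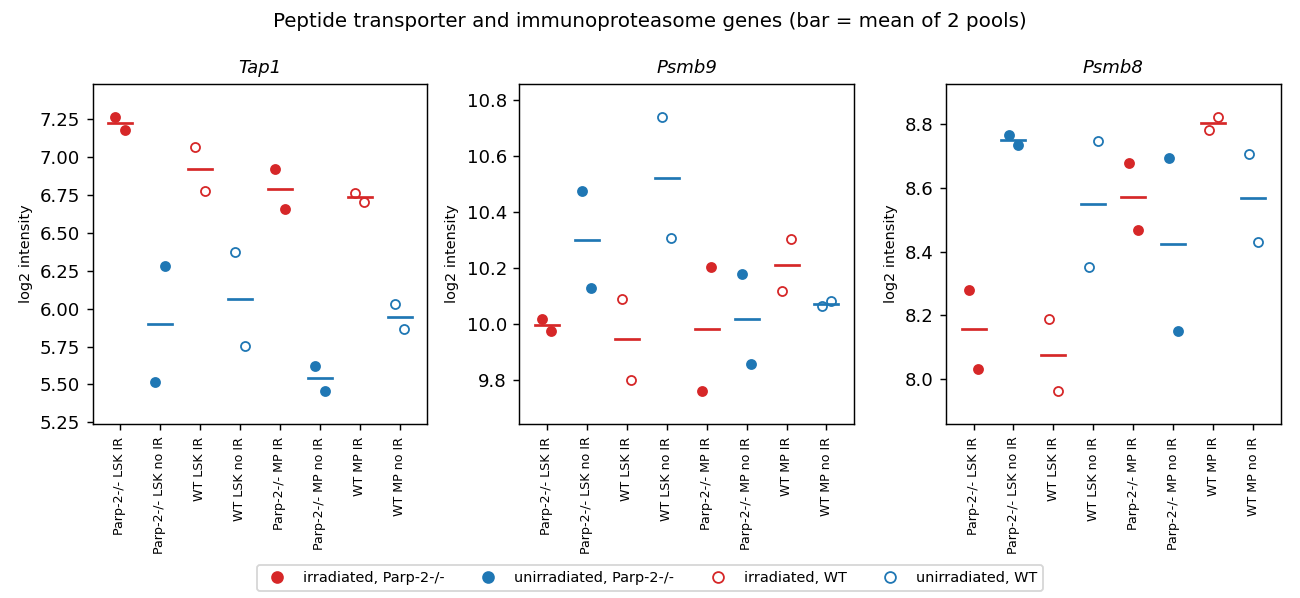
Log2 intensity of Tap1, Psmb9 and Psmb8 in each pool (points, bars are means of 2 pools), irradiated in red left of unirradiated in blue, each gene on its own axis. Tap1 is higher in all 8 irradiated pools, while Psmb9 and Psmb8 are lower in irradiated than in unirradiated LSK pools.

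Among the nucleic acid sensors and the kinase PKR, 0 of 5 passed the averaged test, although all 5 differences were above 0, from 0.15 for Ifih1 (MDA5) to 0.55 ± 0.18 for Ddx58 (RIG-I, adjusted p = 0.10). Eif2ak2, which encodes PKR and shuts down translation when it binds double-stranded RNA, had a difference of 0.46 ± 0.13 (adjusted p = 0.064). Irradiated Eif2ak2 pools lay between 7.75 and 8.32 and unirradiated ones between 7.03 and 7.85. The regulators Adar (0.15) and Trim25 (-0.01) did not pass. Of the 4 transcription factors, none passed: the differences were 0.39 ± 0.12 for Irf7 (adjusted p = 0.099), 0.29 ± 0.21 for Irf9, 0.04 ± 0.13 for Stat2 and -0.15 ± 0.16 for Irf1. A further row of Irf1 gave -0.28 ± 0.17 (adjusted p = 0.46).

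Usp18 and Irf7 were among the genes with opposite signs among the combinations. Dhx58 and Adar had the same order of pools as Usp18, with irradiated pools lower in Parp-2-/- LSK cells and higher in the other 3 combinations. Irradiated Trim25 pools were also lower in Parp-2-/- LSK cells and higher in MP cells of both genotypes. Usp18 removes ISG15 from proteins and dampens the type I receptor. In Parp-2-/- LSK cells it read 5.96 and 4.98 in irradiated pools, against 6.17 and 6.12 in unirradiated pools, a difference of -0.68 ± 0.25. In WT LSK cells it read 6.31 and 6.58 in irradiated pools, against 5.65 and 5.56 in unirradiated pools, a difference of 0.84 ± 0.25. In MP cells it read 6.52 and 6.56 in irradiated Parp-2-/- pools, against 5.41 and 5.56 in unirradiated ones, and 6.45 and 6.33 in irradiated WT pools, against 5.12 and 5.38 in unirradiated ones. Irradiated Usp18 pools were thus lower in Parp-2-/- LSK cells and higher in the other 3 combinations, with no overlap in any. Over all 4 it rose by 0.59 ± 0.12 (adjusted p = 0.013). The test of the difference between Parp-2-/- and WT LSK responses gave -1.52 ± 0.35 (adjusted p = 0.19) and did not pass. Without pool 1 of irradiated Parp-2-/- LSK cells it gave -2.01 (adjusted p = 0.013), and without pool 2 it gave -1.03 (adjusted p = 0.10). The Usp18 difference in Parp-2-/- LSK cells was -1.17 (adjusted p = 0.0099) without pool 1 and -0.19 (adjusted p = 0.77) without pool 2.

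Irf7, the factor that amplifies interferon production, read 5.67 and 6.25 in irradiated Parp-2-/- LSK pools, against 5.27 and 5.06 in unirradiated ones, and 5.45 and 5.43 in irradiated WT LSK pools, against 6.18 and 5.96 in unirradiated ones. In MP cells it read 5.27 and 5.74 in irradiated Parp-2-/- pools, against 4.77 and 4.54 in unirradiated ones, and 5.08 and 5.58 in irradiated WT pools, against 4.59 and 5.02 in unirradiated ones. Irradiated pools were lower in WT LSK cells and higher in the other 3 combinations. The responses of Parp-2-/- and WT LSK cells differed by 1.42 ± 0.35 (adjusted p = 0.21), which did not pass the test. Stat2, which is part of the ISRE-binding complex with IRF9, read 5.82 and 5.41 in irradiated Parp-2-/- LSK pools, against 6.27 and 6.13 in unirradiated ones, and 6.76 and 6.26 in irradiated WT LSK pools, against 6.17 and 5.45 in unirradiated ones. Its responses differed by -1.28 ± 0.36 (adjusted p = 0.30). Irf9, the DNA-binding part of that complex, read 6.91 and 7.02 in irradiated WT LSK pools, against 7.29 and 5.35 in unirradiated WT LSK pools, the widest distance between pools of a group in any of the 35 genes. Without pool 1 of the unirradiated WT LSK cells, the radiation difference of Irf9 in WT LSK cells was 1.62 (adjusted p = 0.0017), and without pool 2 it was -0.32 (adjusted p = 0.51), so its sign rested on which pool was kept. The averaged difference was 0.53 (adjusted p = 0.0019) and 0.05 (adjusted p = 0.85) in the same fits.

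Singly, the 4 radiation responses had few calls. In Parp-2-/- LSK cells 2 of 35 genes (5.71%) rose, with 0.727% of all rows called higher and 1.47% in either direction. These were Cxcl10 at 3.47 ± 0.57 (adjusted p = 0.0098) and Tap1 at 1.32 ± 0.25 (adjusted p = 0.021), and the 35 genes had a median difference of 0.18. The Cxcl10 call was kept in all 16 fits that left out 1 array, and the Tap1 call in 13, with either irradiated Parp-2-/- LSK pool or pool 1 of the unirradiated ones needed for it. In WT LSK cells 4 genes (11.4%) rose, with 1.18% of all rows called higher and 1.8% in either direction. They were Cxcl10 at 2.64 ± 0.57 (adjusted p = 0.039), Ifit1 at 1.81 ± 0.41 (adjusted p = 0.049), Oas2 at 0.80 ± 0.18 (adjusted p = 0.048) and Ifi35 at 0.79 ± 0.17 (adjusted p = 0.035), with a median of 0.39. Without pool 1 or pool 2 of irradiated WT LSK cells the count was 3 or 1, and without pool 1 or pool 2 of unirradiated WT LSK cells it was 3 or 0. Leaving out 1 of the 16 arrays at a time, Cxcl10 kept its WT LSK call in 9 fits, Ifi35 in 10, Oas2 in 4 and Ifit1 in 3, and Ifit1 was at 1.05 without pool 2 of the unirradiated cells. Fitted on the LSK arrays alone, 0 genes were called in either genotype.

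In Parp-2-/- MP cells 1 gene rose, Tap1 at 1.25 ± 0.25 (adjusted p = 0.049), with 0.505% of all rows called higher and 0.588% in either direction. In WT MP cells 1 gene rose, Rtp4 at 2.05 ± 0.41 (adjusted p = 0.043), with 0.571% of all rows called higher and 0.671% in either direction. With 1 array left out at a time the Rtp4 call was kept in 7 of 16 fits and the Tap1 call in 4 of 16, and leaving out any of the 4 Parp-2-/- MP arrays, either irradiated WT MP array or pool 2 of the unirradiated WT MP cells ended the call of that genotype. Fitted on the MP arrays alone, Usp18, Ifit1 and Tap1 were called in both genotypes, and the counts were 3 in Parp-2-/- MP cells and 4 in WT MP cells. Medians over the 35 genes were 0.17 in Parp-2-/- and 0.45 in WT MP cells, and 29 and 31 of the differences were above 0. None of the 35 genes had a response that differed by genotype or by cell type at the threshold, with 0.00871% of all rows called for genotype in LSK cells and 0% in the other 3 such tests. At an unadjusted p under 0.05 there were 6 genes for genotype in LSK cells (9.52% of all rows), 2 for genotype in MP cells (0.867%), 4 for cell type in Parp-2-/- mice (5.36%) and 4 for cell type in WT mice (5.54%).

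Other cell markers were read beside the radiation responses. The summed level of 4 measured plasmacytoid dendritic cell markers, cells that make much interferon, lay between 17.9 and 19.0 in irradiated pools and between 17.7 and 20.3 in unirradiated pools, and 0 of the 4 were called in the averaged comparison. Of 7 macrophage and 4 monocyte markers 0 were called. The summed LSK markers were 55.8 to 58.7 in irradiated LSK pools and 59.6 to 60.0 in unirradiated LSK pools. None of these 8 markers was called in LSK cells of either genotype, and Hoxa9 fell in the average over all 4 combinations. Among MP markers Elane rose and Gata1 and Klf1 fell, and among neutrophil markers Retnlg rose. The part of these shifts in the results was not tested, and in sorted bulk RNA fewer cells of a type and less RNA per cell cannot be told apart.

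Loss of Parp-2 was set against WT in each cell type with and without radiation, and no gene of the 35 passed the test in any of these comparisons by limma. Parp2 itself did not pass in any of them either, although its Parp-2-/- and WT pools never overlapped. Its differences ran from -1.26 (unirradiated MP) to -1.62 (irradiated MP). Only the averages over radiation called Parp2, by -1.42 in LSK (adjusted p = 0.042) and -1.44 in MP cells (adjusted p = 0.025). The lack of calls in single states therefore does not show that the 35 genes were unchanged. The share of all rows called was 0.0174% in irradiated LSK cells, 0% in unirradiated LSK cells, 0.00871% in irradiated MP cells and 0.00436% in unirradiated MP cells. At an unadjusted p under 0.05 there were 5 genes in irradiated LSK cells (9.55% of all rows), 4 in unirradiated LSK cells (9.31%), 0 in irradiated MP cells (1.79%) and 1 in unirradiated MP cells (1.08%). Averaged over radiation, the unadjusted counts were 2 in LSK cells (9.15% of all rows) and 0 in MP cells (1.92%), with 0.0479% and 0.0131% of all rows called. In irradiated LSK cells the Parp-2-/- minus WT difference was -1.20 ± 0.43 for Ifit3 (adjusted p = 0.41), -0.97 ± 0.25 for Usp18 (adjusted p = 0.25) and -0.89 ± 0.26 for Stat2 (adjusted p = 0.29). For Usp18 it was -1.46 (adjusted p = 0.0085) without pool 1 of irradiated Parp-2-/- LSK cells and -0.48 (adjusted p = 0.29) without pool 2. In unirradiated LSK cells the difference was -0.90 ± 0.24 for Irf7 (adjusted p = 0.26). In unirradiated MP cells it was 1.0 ± 0.41 for Rtp4, with an adjusted p of 1. These comparisons share their arrays with the radiation comparisons above.

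The LSK cells were then set against the MP cells. Averaged over genotype and radiation, 9 of 35 genes (25.7%) were higher in LSK cells and 0 were lower, where 21.4% of all rows were called higher and 39.3% in either direction. The median difference was 0.12 over these genes and 0.12 over all rows. The share called higher was thus near that of the array as a whole, while the share called in either direction was below it. Rtp4 was higher by 1.32 ± 0.20 (adjusted p = 0.00064), Ddx58 by 1.06 ± 0.18 (adjusted p = 0.0011), Oasl2 by 1.05 ± 0.20 (adjusted p = 0.0020) and Oas2 by 0.78 ± 0.09 (adjusted p = 0.00010). Ifit3, Irf7, Rsad2, Ifitm3 and Oas3 were higher by 0.40 to 0.65. The Ifit3 call (adjusted p = 0.034) was lost in 11 of 22 other settings and the Oas3 call in 1 of 22, with quantile normalisation among them for both. Irf7, Rsad2 and Ifitm3 kept their calls in all 23. Oas3 lay below the array medians in its MP pools. It was also below them in 1 pool each of irradiated Parp-2-/-, irradiated WT and unirradiated WT LSK cells, so no bound is given for it. Ifit3 lay below the medians in unirradiated cells of both types, so no bound can be given for it there. Quantile normalisation of the arrays lowered the number of rows called from 9022 in the deposited values to 4429. Of the called rows 44.1% were then higher, against 54.5% as deposited, and 7 of the 9 genes stayed called. The median difference was then 0.25 over the 35 genes and 0.04 over all rows, so in this setting the medians no longer matched.

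Ddx58 read 6.79 and 7.84 in irradiated Parp-2-/- LSK pools, against 6.53 and 6.64 in irradiated Parp-2-/- MP pools. It read 7.41 and 7.39 in unirradiated Parp-2-/- LSK pools, against 5.93 and 6.01 in unirradiated Parp-2-/- MP pools. In WT mice Ddx58 read 7.43 and 8.0 in irradiated LSK pools, against 6.72 and 6.95 in irradiated MP pools, and 6.62 and 7.46 in unirradiated LSK pools, against 6.20 and 5.46 in unirradiated MP pools. The LSK pools were higher in all 4 comparisons without overlap. Oasl2 read 6.79 and 6.60 in irradiated Parp-2-/- LSK pools, against 6.02 and 6.00 in irradiated Parp-2-/- MP pools, and 6.68 and 7.41 in unirradiated Parp-2-/- LSK pools, against 5.84 and 5.28 in unirradiated Parp-2-/- MP pools. In WT mice Oasl2 read 7.0 and 8.02 in irradiated LSK pools, against 6.26 and 6.30 in irradiated MP pools, and 6.64 and 6.13 in unirradiated LSK pools, against 6.14 and 5.03 in unirradiated MP pools. Its WT unirradiated groups overlapped slightly, with an MP pool at 6.14 above an LSK pool at 6.13, and the other groups did not overlap.

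Within single states, the cell type comparison called Oas2 higher in irradiated LSK cells of both genotypes, at 0.94 ± 0.18 in Parp-2-/- mice (adjusted p = 0.016) and 0.82 ± 0.18 in WT mice (adjusted p = 0.037). Of all rows, 4.07% were called in either direction and 0.88% higher in irradiated Parp-2-/- mice, and 2.45% and 0.575% in irradiated WT mice. Usp18 was lower in irradiated Parp-2-/- LSK than MP cells, with a difference of -1.07 ± 0.25 (adjusted p = 0.032), with 3.19% of all rows called lower. Without pool 2 of irradiated Parp-2-/- LSK cells it was -0.58 (adjusted p = 0.092), without pool 1 it was -1.56 (adjusted p = 0.0028), and the call was lost in 7 of 23 other settings. In unirradiated Parp-2-/- mice, where 3.34% of all rows were called and 0.827% higher, Ddx58 was higher in LSK cells by 1.43 ± 0.36 (adjusted p = 0.0498). That call was lost in 9 of 23 other settings, among them leaving out any array of the groups compared. In unirradiated WT mice, where 5.23% of all rows were called and 1.29% higher, Rtp4 was higher in LSK cells by 1.89 ± 0.41 (adjusted p = 0.022), Irf7 by 1.26 ± 0.24 (adjusted p = 0.014) and Rsad2 by 0.82 ± 0.20 (adjusted p = 0.040). Without pool 2 of unirradiated WT LSK cells Rtp4 lost its call (1.70), and Rsad2 lost it without pool 1 (0.70) or pool 2 (0.93). Irf7 kept its call without either LSK pool. Of the unirradiated WT MP pools, leaving out pool 1 ended the Irf7 call, pool 2 the Rtp4 call, and either pool the Rsad2 call. In irradiated WT mice the Oas2 call was lost in 11 of 23 other settings. These included leaving out pool 1 of the irradiated WT LSK cells (0.68) or any single MP array. In irradiated Parp-2-/- mice the Oas2 call was lost in 2 of 23, which left out an irradiated Parp-2-/- MP pool. Rsad2 read 5.30 and 5.06 in unirradiated WT LSK pools, against 4.20 and 4.53 in unirradiated WT MP pools, which lay below the array medians, so its difference is a lower bound. In irradiated WT mice Rsad2 read 5.53 and 5.58 in LSK pools, against 5.05 and 5.14 in MP pools. In Parp-2-/- mice it read 5.30 and 4.70 in irradiated LSK pools, against 4.65 and 4.79 in irradiated MP pools, and 5.04 and 5.18 in unirradiated LSK pools, against 4.95 and 4.66 in unirradiated MP pools.

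**Figure D5:**
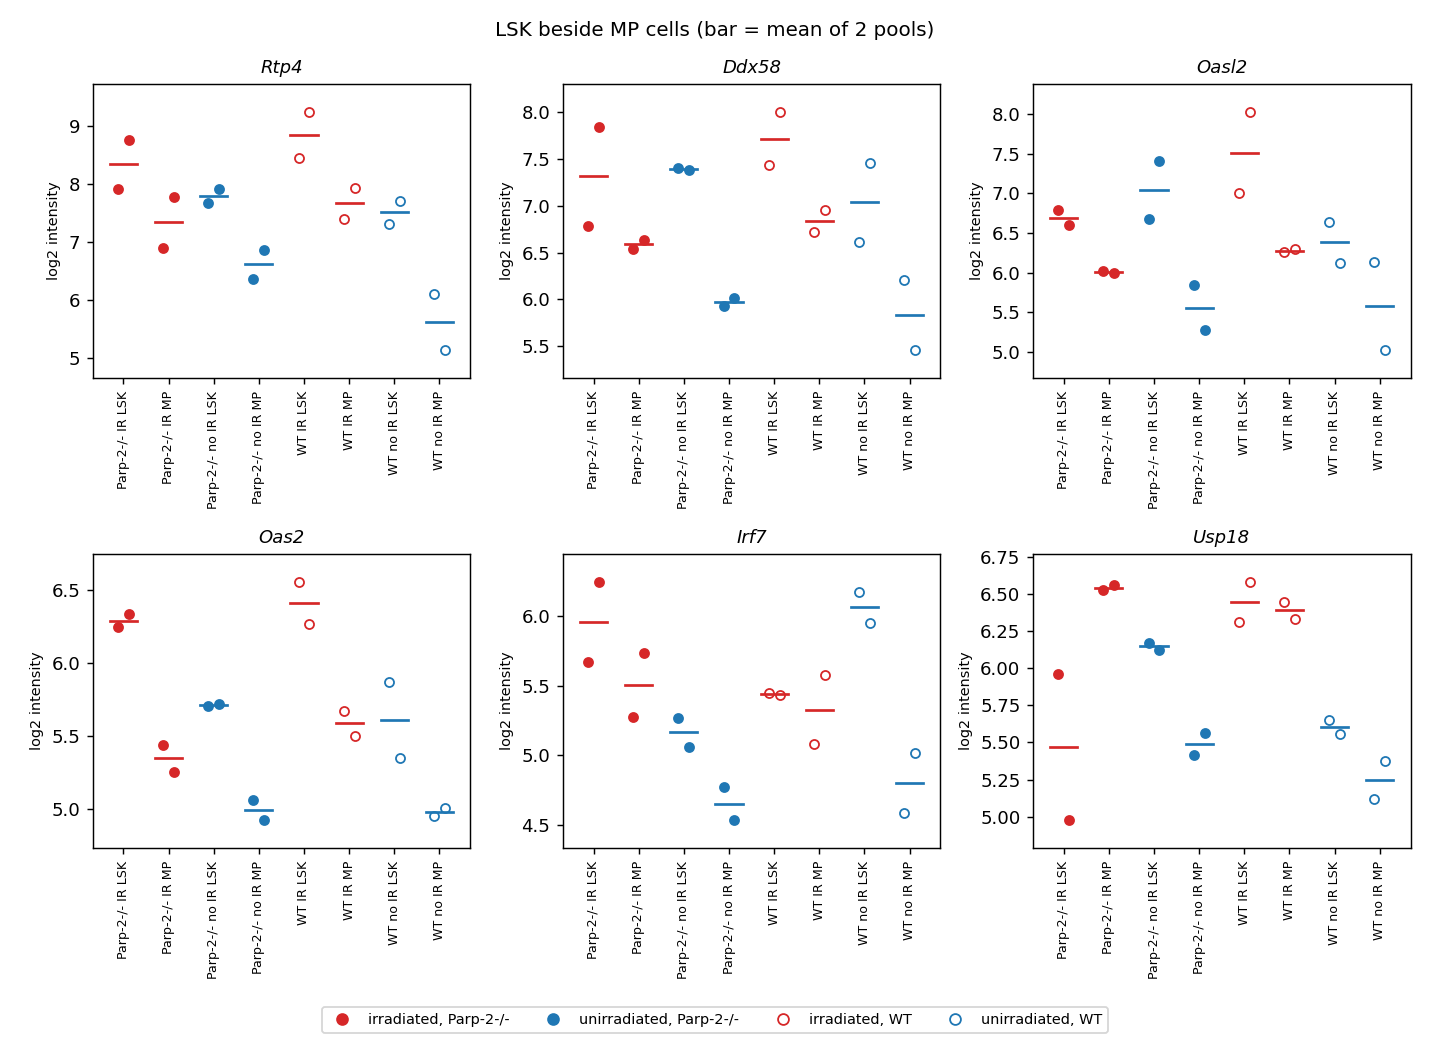
Log2 intensity in each pool (points, bars are means of 2 pools) with LSK pools left of the MP pools of the same genotype and radiation state, each gene on its own axis. Rtp4, Ddx58 and Oas2 are higher in LSK pools in all 4 pairs, while Usp18 is higher in LSK than in MP pools without overlap only in the unirradiated pairs.

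A further list of 84 genes of the interferon pathway, 73 of them measured, was read in the same fits. Averaged over the combinations, 15 rose and 1 fell with radiation, beside 3.31% of all rows called higher and 5.8% called in either direction. Of 9 interferon ligands 0 were called, and 6 of them lay below the array median on all 16 arrays. Of 6 receptor chains 0 were called, as were 0 of 7 inhibitors of the pathway. Among 8 further kinases and transcription factors Irf8, a factor of myeloid and dendritic fate, fell by 0.53 ± 0.14 (adjusted p = 0.049), and the call was lost in 17 of 23 other settings. Among 10 sensing genes the kinase gene Ikbke rose by 1.02 ± 0.19 (adjusted p = 0.0079) and the DNA sensor gene Aim2 by 0.64 ± 0.15 (adjusted p = 0.025). The Ikbke call was kept in all 23 other settings and the Aim2 call in 13.

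Of 33 further induced genes 13 rose. Mx2 and Mx1, genes of a GTPase family, rose by 2.20 ± 0.14 (adjusted p = 1.1e-06) and 2.08 ± 0.08 (adjusted p = 2.6e-08). Both differences are lower bounds because all their unirradiated pools lay below the array medians. Slfn2, a schlafen gene that keeps lymphocytes quiescent, rose by 1.28 ± 0.15 (adjusted p = 0.00027). Gbp5, a guanylate-binding protein like Gbp3, rose by 1.19 ± 0.18 (adjusted p = 0.0015), Parp14, a mono-ADP-ribosyltransferase, by 1.04 ± 0.12 (adjusted p = 0.00025), and the GTPase gene Iigp1 by 0.91 ± 0.12 (adjusted p = 0.00071). Ly6a, which encodes the Sca1 used in the sort, was not on a row of its own and has no value here.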

How the data were processed

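The values are log2 intensities that the authors deposited in a table of 34760 rows and 16 arrays, all of one platform. Per the submitters' processing notes the tools included R 2.15 with affy 2.10, RMA and limma, in no stated order or role, and whether all arrays were normalised together is not given in the sources used here. Of the rows, 21640 carried 1 symbol, 1321 several and 11799 none. The 22961 rows with a symbol were fitted with limma 3.58.1 in R 4.3.3 as 8 group means (8 residual and 4.35 prior degrees of freedom), with no covariate, and two-sided p-values were adjusted by Benjamini-Hochberg over all of them. A gene was called at an adjusted p under 0.05. The fit was tested on simulated data. The number of arrays limits the precision: all groups had 2 pools. No array gives a detection flag, so a group below its arrays' median was taken as not shown above background. Pool values are given for up to 14 called genes by size of change, plus those with the brightest and the dimmest probe set. Outside this rule, pool values are also given for Psmb9, Stat2 and Irf9, which were not called. Not all pathway genes called with radiation are described above, and the choice was not by size of change alone. Oas1b (by 0.90), Slfn8 (by 0.76), Ddx60, Cd274, Trim30a, Pml and Sp100 also rose in the averaged comparison. The genes and lists were chosen with earlier results of these data known. Quantile normalisation, the arrays of 1 cell type, pool number as a block, an intensity trend, array weights, other row choices and leaving out each array were tried.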

Additional observations from a re-analysis of the deposited data

How the results depend on the processing

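Of 105 calls made for single genes of both lists, 48 were kept under all 24 other settings that could be run on them, and 0 changed sign. The averaged radiation count of 10 lay between 8 and 12 with 1 array left out and between 8 and 11 otherwise, all of them higher. Counts for single combinations moved, and the cause was not tested. Radiation counts were 0 in Parp-2-/- MP and 0 in WT MP cells after quantile normalisation; 0 in LSK cells of both genotypes, 3 in Parp-2-/- MP and 4 in WT MP cells on the arrays of 1 cell type; 1 in WT LSK and 0 in Parp-2-/- MP cells with an intensity trend; 0 in LSK cells of both genotypes, 2 in Parp-2-/- MP and 6 in WT MP cells with array weights; and 1 in Parp-2-/- LSK and 0 in the other 3 when unnamed rows were tested too. Cell type counts in irradiated and unirradiated Parp-2-/- and irradiated WT mice were 1, 2 and 0 after quantile normalisation, and 1, 0 and 0, with 1 in unirradiated WT mice, when unnamed rows were tested too. In unirradiated Parp-2-/- mice the count was 3 with array weights and 3 without dim rows. Quantile normalisation moved the cell type medians to 0.35 in irradiated WT, 0.28 in unirradiated WT and 0.25 on average. With 1 array left out, radiation counts were 1 to 3 in Parp-2-/- LSK, 0 to 6 in WT LSK, 0 to 1 in Parp-2-/- MP and 0 to 2 in WT MP cells, genotype counts 0 to 1 in irradiated LSK cells and on LSK average, and cell type counts 0 to 3 in irradiated and 0 to 3 in unirradiated Parp-2-/- mice, 0 to 2 in irradiated and 1 to 4 in unirradiated WT mice, and 8 to 13 on average. The tests of differing responses gave 0 to 1 by genotype in LSK cells and by cell type in Parp-2-/- mice. Medians with 1 array left out were 0.0019 to 0.27 for radiation in Parp-2-/- LSK, 0.28 to 0.61 in WT LSK and 0.27 to 0.46 in WT MP cells, 0.00057 to 0.25 for genotype in unirradiated LSK cells, and for cell type 0.035 to 0.30 and 0.093 to 0.32 in irradiated and unirradiated Parp-2-/- mice and -0.075 to 0.42 in unirradiated WT mice. For differing responses they were -0.42 to -0.13 by genotype in LSK cells, -0.20 to 0.058 by cell type in Parp-2-/- mice and -0.21 to 0.14 in WT mice. Equal pool numbers showed little shared deviation: over 28 pairs of groups the correlations of equal numbers lay between -0.17 and 0.23, with 2 over 0.1. Such values cannot show whether equal numbers shared mice. With the pool number as a replicate block, the averaged count was 9, the radiation count in Parp-2-/- MP cells 0 and the cell type count in unirradiated Parp-2-/- mice 2.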

Other observations

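Genes of the pathway list were also compared between the cell types. Averaged over genotype and radiation, 19 of its 73 measured genes were higher and 4 lower in LSK than in MP cells, where 21.4% of all rows were called higher and 39.3% in either direction, so the share called in either direction was lower in the list than on the array. Ifngr1, a chain of the interferon gamma receptor, was lower in LSK cells with a difference of -1.37 ± 0.14 (adjusted p = 4.3e-05, limma), and in each of the 4 states, from -1.13 in irradiated Parp-2-/- mice to -1.75 in irradiated WT mice. Of 23 other settings, the Ifngr1 call was lost in 12 in irradiated and 4 in unirradiated Parp-2-/- mice. In WT mice it was lost in 2 for the irradiated and 6 for the unirradiated state. Iigp1, a GTPase that acts on vacuoles of intracellular pathogens, was higher by 1.37 ± 0.12 (adjusted p = 2.1e-05), with 1.93 in irradiated Parp-2-/-, 1.06 in unirradiated Parp-2-/-, 1.5 in irradiated WT and 0.997 in unirradiated WT mice. Of 22 other settings, these single Iigp1 calls were lost in 0, 11, 2 and 11, in the same order. Mx1 was lower in irradiated WT LSK than MP cells, with a difference of -0.89 (adjusted p = 0.017). That call was lost in 3 of 23 other settings, which left out an irradiated WT MP pool or pool 1 of the irradiated WT LSK cells.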
